A study of Mus musculus with 1829 samples.

Results

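Cells from the pancreatic islets of NOD mice, sorted as insulin-specific CD4+ T cells, were measured singly. They were split by whether the transcript of interferon gamma (Ifng) was detected in the single cell. The cells were chosen by measured values: an islet well counted when 20 or more of its 96 assays were detected and Foxp3, the factor that marks regulatory T cells, was not. Of 493 islet wells, 215 reached 20 assays and 66 of those had Foxp3, out of 1829 wells used from the whole series. The members that remained were 89 wells with Ifng detected (59.7%, 95% exact interval 51.4 to 67.7%) and 60 wells without it. That interval covers counting error only: by animal or sort the share ran from 12.5 to 100%.

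All samples came from one strain, NOD/ShiLtJ, a mouse that develops autoimmune diabetes and carries the class II molecule IAg7. No treatment, transgene or control strain enters the comparison. CD4+ T cells were stained with a PE-labelled tetramer of IAg7 and an insulin B chain peptide, residues 12-20 in one case and 13-21 in the other. Stained cells were sorted 1 to a well and measured by quantitative PCR on chips of 96 assays by 96 wells. The 12-20 tetramer gave 76 member wells, of which 35 were from 3 animals of 13 weeks, 36 from 7 weeks and 5 from 1 animal of 8 weeks. The 13-21 tetramer gave 73 member wells, 42 of 13 weeks and 31 of 7 weeks. Some 7-week cells carry a sort letter and number instead of an animal number, and whether such a sort was 1 animal is not stated in the sources used here.

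Interferon gamma is the defining cytokine of type 1 helper (Th1) cells, which activate macrophages and are drawn into inflamed tissue. T-bet, encoded by Tbx21, is the transcription factor that drives this programme, and Cxcr3 is a chemokine receptor that T-bet induces. In NOD mice, CD4+ T cells that see insulin peptides are among the cells that enter the islets before diabetes. A helper cell that has met antigen usually also carries co-stimulatory and inhibitory receptors such as Icos, Pdcd1 (PD-1) and Ctla4.

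An assay was taken as detected when the instrument called the reaction a pass and the threshold cycle (Ct) was under 24. Its level is given as log2Ex, 24 minus Ct, and as 0 where it was not detected. A difference in mean log2Ex therefore mixes the share of wells with the transcript and the level in those wells, and is not a fold change. The split itself was sharp. Detected Ifng Ct values ran from 9.88 to 22.54, the next highest being 20.28, and no Ifng-negative member well held a Ct for Ifng. Only 3 Foxp3-negative wells had 20 to 24 assays and 5 had 15 to 19; none of these 8 wells had Ifng or Cd3e.

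The sort label of CD4+ T cell was checked against Cd3e, which encodes a CD3 chain of the T cell receptor. Every one of the 89 Ifng-detected wells had Cd3e (0 without it, which allows a share of up to 3.37%). Of the 60 Ifng-negative wells, 22 had Cd3e and 38 did not (63.3%, exact interval 49.9 to 75.4%). The Ifng-negative arm was thus a mixture, and each comparison is given with all wells and again with Cd3e wells alone. The Cd3e split was chosen after this was seen.

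**Figure D1:**
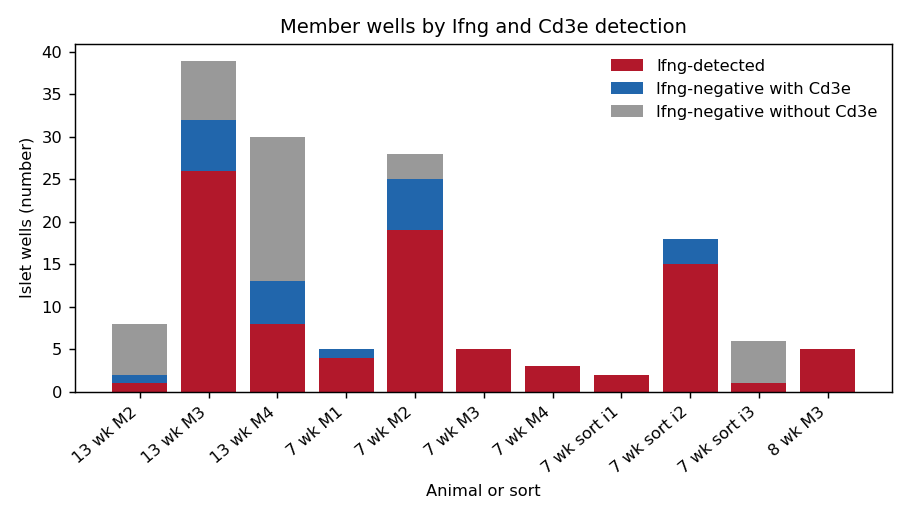
Number of member islet wells (y axis) of each animal or sort (x axis), stacked as Ifng-detected, Ifng-negative with Cd3e and Ifng-negative without Cd3e. The wells without Cd3e were 17 of 30 in animal M4 of 13 weeks and 0 in the 7-week sort i2.

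The 38 wells without Cd3e were not empty. They had a median of 44 detected assays (20 to 54), against 45 (34 to 61) in Ifng-detected wells and 41 (28 to 54) in Ifng-negative wells with Cd3e. Median Gapdh, a housekeeping gene, was 14.01, 14.02 and 14.06 log2Ex in the same order. Cd4 was detected in 30 of the 38, against 88 of 89 and 22 of 22. Zap70, the kinase that couples the T cell receptor to its signal, was in 0 of 38, as were Ctla4, Pdcd1, Il21, Il18r1 and Tbx21. Each of these 6 assays was found in some wells of both other classes. Other assays of activated T cells were not absent from wells without Cd3e. Cd28, a co-stimulatory receptor, was in 4 of the 38, all from M4 of 13 weeks. Icos was in 2 of 6 such wells of M2, 1 of 7 of M3 and 9 of 17 of M4, all of 13 weeks. Cxcr3 was in 1 of 6, 1 of 7 and 2 of 17 of the same animals, and in 1 of 3 of M2 of 7 weeks. Irf4, a factor induced by receptor signalling, was in 3 of 6 of M2 and 1 of 7 of M3, of 13 weeks.

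Other transcripts were frequent in the wells without Cd3e. Cd86, a ligand for CD28 and CTLA4 that antigen-presenting cells carry, was in 32 of 38 wells (84.2%), against 7 of 89 Ifng-detected wells (7.87%) and 1 of 22 Ifng-negative wells with Cd3e (4.55%). Cd80, a second such ligand, was in 23, 5 and 2 wells of the 3 classes, and Cd40, a receptor through which helper cells act on presenting cells, in 16, 3 and 1. At least 2 of Cd86, Cd80 and Cd40 were detected together in 26 of 38, 1 of 89 and 1 of 22 wells. Ifngr1, a chain of the interferon gamma receptor, was in 37 of 38, 23 of 89 and 4 of 22 wells. Tnfrsf1a, a TNF receptor, was in 35, 18 and 4 wells, and Ccr1, a receptor for inflammatory chemokines, in 25, 1 and 1. Ifngr1 and Tnfrsf1a were not particular to wells without Cd3e. In Foxp3-detected islet wells, all with Cd3e, they were in 62 and 32 of 66. In blood wells that met the same filters they were in 71 and 59 of 84. Cd86, Cd80, Cd40 and Ccr1 were in 7, 6, 4 and 2 of those 66 and 3, 1, 0 and 1 of those 84. Spleen wells that met the same filters had them in 10, 4, 1 and 0 of 22, and 14 of the 22 lacked Cd3e. Lymph node had Cd86 in 21 such wells, all Ifng-negative (13.9% of its Ifng-negative wells), and 20 lacked Cd3e. Whether the spleen and lymph node wells with Cd86 were those without Cd3e was not tested. The panel had no assay for the usual lineage markers of macrophages, dendritic cells or B cells, so the 38 wells are called only wells without Cd3e.

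This content did not run evenly through the animals. Cd86 was in 6 of 6 wells without Cd3e of M2, 6 of 7 of M3 and 17 of 17 of M4, all of 13 weeks, and in 3 of 3 of M2 of 7 weeks. The 5 wells without Cd3e of the 7-week sort i3 held neither Cd86 nor Cd4. These 5 lay near the limit of 20 assays, with 20, 21, 23, 26 and 27 detected. Cd8a, which marks the other main T cell lineage, was in no well of any class.

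**Figure D2:**
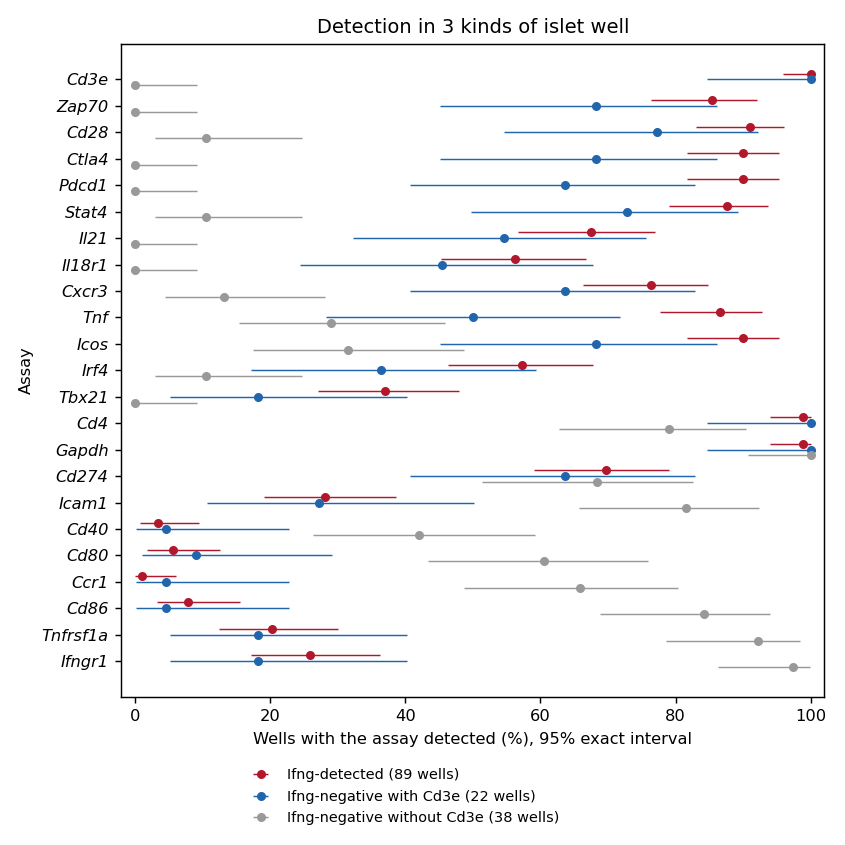
Percent of wells with each assay detected (x axis, with 95% exact intervals for counting error) for 23 assays (y axis) in 89 Ifng-detected wells, 22 Ifng-negative wells with Cd3e and 38 Ifng-negative wells without Cd3e. The Ifng-negative wells with Cd3e lie near the Ifng-detected wells for Cd86, Tnfrsf1a and Ifngr1, whereas wells without Cd3e lie apart.

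For the comparison of conditions within an animal, both arms were taken from the same animal, tetramer and chip, with at least 3 wells in each arm. Of the 11 animals or sorts, 3 met this: M3 and M4 of 13 weeks and M2 of 7 weeks, with 53 Ifng-detected and 44 Ifng-negative wells. Of 71 assays tested with limma over the 3 animal differences, 9 were called at an adjusted p of 0.05 (12.7% of assays), 8 higher and 1 lower in Ifng-detected wells. Another 15 had only an unadjusted p under 0.05, 24 in all. The calls rested on particular animals: 0 assays were called without M4 of 13 weeks, 6 without M3 of 13 weeks and 20 without M2 of 7 weeks.

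Cd3e, Zap70 and Cd28 were among the assays that rose. Mean Cd3e was 13.32 log2Ex in Ifng-detected and 5.63 in Ifng-negative wells of M3 of 13 weeks, 12.80 and 2.92 in M4 of 13 weeks, and 13.51 and 8.47 in M2 of 7 weeks. The arms did not overlap, and the mean difference was 7.54 ± 1.07 (SE, n = 3, adjusted p = 0.0317). Zap70 went from 2.10 to 7.72, from 2.11 to 8.51 and from 3.60 to 6.72 in the same animals, a difference of 5.05 ± 0.86 (adjusted p = 0.0317). Cd28, the receptor for Cd80 and Cd86, differed by 4.85 ± 0.97 (adjusted p = 0.0399). All 3 were higher in Ifng-detected wells in each animal.

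Both inhibitory receptors on the panel rose. Pdcd1 had means of 3.07, 1.60 and 4.66 in Ifng-negative wells of the 3 animals and of 8.42, 6.07 and 8.80 in Ifng-detected wells. The difference was 4.66 ± 0.62 (adjusted p = 0.0317). Ctla4 stood at 2.70, 1.24 and 3.42 in the negative arm and 9.05, 6.81 and 6.18 in the detected arm, 4.89 ± 0.91 apart (adjusted p = 0.0384). Il21, a cytokine of follicular helper cells that also acts on B cells and CD8 T cells, was 2.77, 0.85 and 3.37 against 7.84, 4.96 and 6.49, a difference of 4.10 ± 0.68 (adjusted p = 0.0317). Irf4, a factor induced by receptor signalling, rose by 3.74 ± 0.73 (adjusted p = 0.0399).

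Among genes of the Th1 programme, Cxcr3 rose by 3.34 ± 0.73 (adjusted p = 0.0498), from 3.26 to 5.73, from 2.14 to 6.84 and from 4.79 to 7.64. That call was marginal: the adjusted p was 0.051 for the share of wells, 0.0548 over all assays detected, 0.0523 with animals weighted by wells, 0.0667 with unpaired arms, and 0.162 and 0.104 in 12-20 and 13-21 wells alone. Tbx21 had means of 0.78, 0.35 and 0.90 in the negative arms and 2.78, 1.97 and 3.80 in the detected arms, higher in 3 of 3 animals. Its difference of 2.17 ± 0.63 did not pass (adjusted p = 0.0828). Tnf, an inflammatory cytokine that T cells and macrophages both make, differed by 2.62 ± 0.73 (adjusted p = 0.0828), and the co-stimulatory receptor Icos by 3.15 ± 0.77 (adjusted p = 0.0644). Ifngr1 was the assay that fell, by 3.97 (SE 0.62, adjusted p = 0.0317), with means of 5.72, 9.83 and 3.47 in Ifng-negative wells and 1.92, 5.18 and 0.00 in Ifng-detected wells. Cd86 differed by -4.83 ± 1.49 (adjusted p = 0.0905).

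The remaining index genes had smaller mean differences between the arms, and none passed. Ccr7, which takes T cells into lymph nodes, differed by 1.35 (adjusted p = 0.335) and Il2ra (CD25), part of the interleukin-2 receptor, by 1.25 (adjusted p = 0.349). Cd44, a marker of antigen experience, differed by -0.12, Il7r, the interleukin-7 receptor, by 0.39 and Gapdh by 0.12 (adjusted p = 0.953 for each). The small mean of Il7r joined large opposite values: -2.04 in M3 and 5.53 in M4 of 13 weeks, and -2.32 in M2 of 7 weeks. Cd44 was -1.42, -0.39 and 1.46 in the same order. Cd4 differed by 0.54 (adjusted p = 0.689). Il2 and Il10 were in too few wells to be tested.

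Wells with more detected assays have more chances to show any gene. Apart from Ifng and Foxp3, Ifng-detected wells had 44.54 ± 4.29 detected assays and Ifng-negative wells 41.04 ± 4.06 (SD over 3 animals). The differences by animal were -0.31, 5.01 and 5.83, and the two-sided exact sign-flip permutation test gave p = 0.5 (adjusted over 3 such tests 0.5), where 3 animals cannot go below 0.25. With the number of assays per well as a covariate, 3 of 71 assays were called (4.23%), all 3 among the 9 above. Cd3e differed by 7.46 ± 1.07, Pdcd1 by 4.31 ± 0.67 and Ifngr1 by -4.72 ± 0.66, each with an adjusted p of 0.0393. The other 6 assays each had an adjusted p of 0.0618 with this covariate, with differences nearly as large as before: Zap70 4.53, Ctla4 4.70, Cd28 4.40, Il21 3.61, Irf4 3.21 and Cxcr3 3.14.

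No assay was called when the islet comparison was restricted to wells with Cd3e. The same 3 animals then gave 41 Ifng-detected and 14 Ifng-negative wells, and 0 of 64 assays were called (0%), with 2 at an unadjusted limma p under 0.05. Fewer strata (an animal's wells of 1 tetramer and chip) also remained, 4 of 6: M3 and M4 of 13 weeks then gave 13-21 wells only. Over all wells of those 4 strata, with or without Cd3e, 2 assays were called, Cd3e (5.98, adjusted p = 0.0409) and Zap70 (4.29, adjusted p = 0.0492), so the number of calls fell with the strata as well as with the wells. Pdcd1 differed by 4.66 over all wells, by 2.80 over all wells of the 4 strata and by 0.18 ± 1.81 in their Cd3e wells (adjusted p = 0.972). The last value joined 3.82 in M3 of 13 weeks, -4.86 in M4 of 13 weeks, which had 4 wells against 3, and 1.57 in M2 of 7 weeks. Without M4 of 13 weeks it was 2.70. Ifngr1 differed by -3.21 over all wells of the 4 strata and by 0.39 in their Cd3e wells (adjusted p = 0.951), or -0.79 with the number of assays as a covariate. Zap70 differed by 1.52 (adjusted p = 0.951), Ctla4 by 1.87 (adjusted p = 0.93), Il21 by 1.40 and Irf4 by 1.50 (both adjusted p = 0.951). Cd28 differed by 3.12 (adjusted p = 0.9). Without M4 of 13 weeks, 2 assays were called, Tnf and the chemokine receptor Cxcr4 (4.38 and 4.00 higher in Ifng-detected wells).

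The mean difference of Tbx21 moved less than those of Pdcd1 and Ifngr1, though single animals did move. In Cd3e wells its means were 1.72, 0.00 and 1.32 in Ifng-negative wells of M3 and M4 of 13 weeks and M2 of 7 weeks, and 2.66, 2.03 and 3.79 in Ifng-detected wells. That is 1.81 ± 0.75, against 2.17 over all wells, and it did not pass (adjusted p = 0.9). Cxcr3 differed by 1.19 ± 0.75 (adjusted p = 0.93). Tnf had means of 0.00, 2.80 and 7.97 in Ifng-negative wells and 7.93, 3.04 and 8.80 in Ifng-detected wells, so nearly all of its difference of 3.001 ± 1.73 (adjusted p = 0.93) lay in M3 of 13 weeks.

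**Figure D3:**
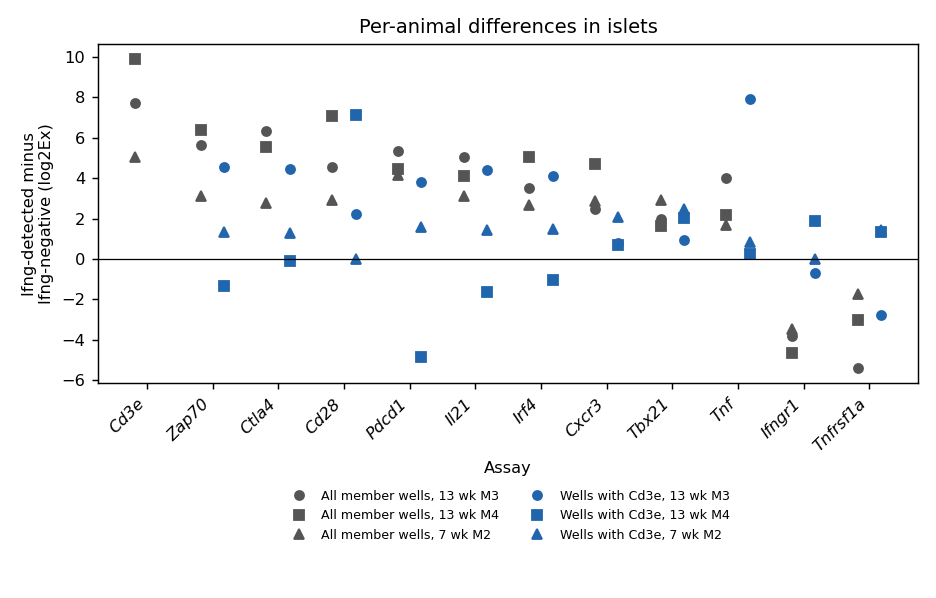
Mean log2Ex of Ifng-detected minus Ifng-negative wells (y axis) for 12 assays (x axis) in 3 animals, with all member wells (grey) and with Cd3e wells alone (blue, no Cd3e point). For Pdcd1 the grey points lie between 4 and 6, while the blue points fall on both sides of 0.

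A wider set of animals could be used when 1 Cd3e well per arm was enough. That gave 5 animals, 72 Ifng-detected and 21 Ifng-negative wells, with each animal weighted by its wells. Again 0 of 64 assays were called (0%), though 8 had an unadjusted limma p under 0.05, all 8 higher in Ifng-detected wells. The assay with the lowest p was Tnfrsf1b, the second TNF receptor, 2.21 ± 0.50 higher (adjusted p = 0.144) and higher in 5 of 5 animals. Irf4 was 2.39 ± 0.66 higher (adjusted p = 0.219) and Tnf 2.60 ± 0.90 higher (adjusted p = 0.288), the first in 4 and the second in 5 of 5 animals. Tbx21 was 1.48 ± 0.84 higher (adjusted p = 0.5), above 0 in 4 animals, and Cxcr3 1.31 ± 0.59 higher (adjusted p = 0.36). Pdcd1 was 1.65 ± 0.76 higher (adjusted p = 0.36). Icos was 1.76 higher here but -0.81 in the 3 animals, neither past the threshold. Tnfrsf1b lies outside the rule for named genes and was chosen after its values were seen.

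The 89 Ifng-detected wells can also be described on their own. Their median Ifng level was 9.90 log2Ex (1.46 to 14.1). By animal the median was 10.06 in M3 and 9.57 in M4 of 13 weeks, 9.37 in M2 and 8.36 in M3 of 7 weeks, 11.09 in sort i2 and 10.76 in M3 of 8 weeks. The ranges of these 6 overlapped. Cells of the 12-20 tetramer had a median of 10.36 and those of the 13-21 tetramer 9.45.

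**Figure D4:**
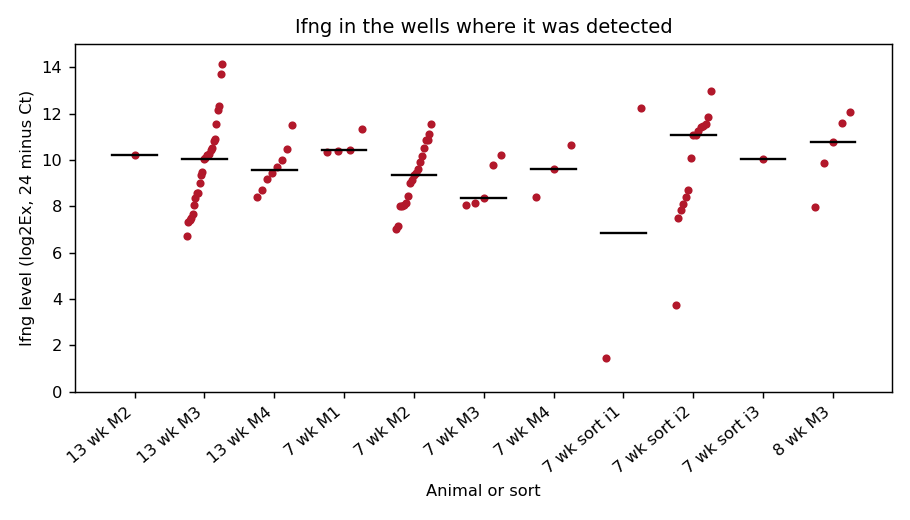
Ifng level (y axis, log2Ex, 24 minus Ct) in each of the 89 Ifng-detected islet wells, by animal or sort (x axis), with a bar at the median. The lowest point is 1.46 in sort i1 and the highest 14.1 in M3 of 13 weeks.

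Most Ifng-detected cells did not show Tbx21. Tbx21 and Cxcr3 were both found in 27 wells (30.3%), Cxcr3 without Tbx21 in 41 (46.1%), Tbx21 without Cxcr3 in 6 and neither in 15 (16.9%). Among the 22 Ifng-negative wells with Cd3e these counts were 3, 11, 1 and 7. Within animals, mean Ifng was 9.83 log2Ex in wells with Tbx21 and 9.81 in wells without it in M3 of 13 weeks, 9.34 and 9.22 in M2 of 7 weeks, and 10.85 and 9.10 in sort i2. No test was run on these 3 pairs. Over the 6 animals with 5 or more Ifng-detected wells, the share with Tbx21 ran from 0 to 47.4%, whereas that with Cxcr3 ran from 65.4 to 80%.

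Other cytokines accompanied Ifng. Tnf was in 77 of the 89 wells (86.5%), Il21 in 60 (67.4%) and both in 53 (59.6%). Over the 6 animals Tnf ran from 62.5 to 100% and Il21 from 20 to 84.6%. Il10, an anti-inflammatory cytokine, was in 3 wells and Il2, a T cell growth factor, in 2. Il4 and Il5, of Th2 cells, and Il17a, of Th17 cells, were in none (0 of 89, which allows up to 3.37% of wells with a detected signal). In the 22 Ifng-negative wells with Cd3e, Tnf was in 11 and Il21 in 12.

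Receptors of activated and follicular helper cells were frequent too. Pdcd1 and Icos were found together in 74 of the 89 wells, with Il21 as well in 49, and with Bcl6 too, the factor of the follicular helper programme, in 24 (26.97%). Among the 22 Ifng-negative wells with Cd3e the same patterns were in 11, 9 and 7 (31.8%). Bcl6 alone was no mark of these cells on this panel, since it was in 47 of 89 Ifng-detected wells, 14 of 22 Ifng-negative wells with Cd3e and 24 of 38 wells without Cd3e. Ccr7 was in 40, 10 and 1 wells of the 3 classes and Il7r in 22, 9 and 2.

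The share of member wells with Ifng was compared between the tetramers in the 5 animals with at least 3 wells of each. The 12-20 share was 0% against 20% of the 13-21 share in M2 of 13 weeks, 53.3 against 75% in M3, 23.5 against 30.8% in M4, 66.7 against 68.8% in M2 of 7 weeks and 85.7 against 75% in sort i2. Means were 45.8 ± 34.2% and 53.9 ± 26.4% (SD, n = 5), a difference of -8.06 percentage points. The two-sided exact sign-flip permutation test gave p = 0.3125 (adjusted over 3 tests 0.469), with 0.0625 the smallest p possible. In Cd3e wells alone the difference was 6.26 percentage points, the other direction.

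Between ages, animals with 5 or more member wells were compared. At 13 weeks the share with Ifng was 12.5, 66.7 and 26.7% in M2, M3 and M4 (mean 35.3 ± 28.1%, SD, n = 3). At 7 weeks it was 80% in M1, 67.9% in M2, 100% in M3, 83.3% in sort i2 and 16.7% in sort i3 (mean 69.6 ± 31.7%, n = 5). The groups overlapped, and the difference of -34.3 percentage points had an exact permutation p of 0.179 (two-sided, adjusted over 3 tests 0.469). The Ifng-negative wells of sort i3 all lacked Cd3e, and without that sort the difference was -47.5. Its exact permutation p was 0.0286, the smallest possible with 3 against 4 animals or sorts. Wells without Cd3e were 30 of 77 at 13 weeks and 8 of 67 at 7 weeks. Among Cd3e wells the difference was -13.4 percentage points (exact permutation p = 0.4, 2 against 4 animals or sorts). Pooled shares of Cd3e wells with Ifng were 74.5% at 13 weeks and 83.1% at 7 weeks.

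Age and tetramer could be set against the split only in the same 3 animals. The difference between Ifng-detected and Ifng-negative wells was itself compared between 13 and 7 weeks (0 of 71 assays called by limma, 0%, 5 at an unadjusted p under 0.05) and between the tetramers (0 of 71 called, 0%, 3 at an unadjusted p under 0.05). The age test set 2 animals of 13 weeks against 1 of 7 weeks, so its count says nothing about age in general, and the tetramer test had 3 animals.

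Blood and lymph node cells offer the same split in samples that the rule did not use. In blood, 84 Foxp3-negative wells had 20 or more assays, all 12-20, and 49 had Ifng (58.3%). The comparison used the 49 wells with Ifng and 34 without it from 5 samples of 8 weeks, leaving out 1 well of 7 weeks. Cd3e was in 82 of the 84 and Cd86 in 3. Samples labelled M1 to M4 of blood and the 8-week animal M3 were treated as different animals, which the labels do not state. Of 60 assays tested, 6 were called (10%), 5 higher and 1 lower in Ifng-detected wells. Leaving out the blood sample M4 gave 11.

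Of the 60 assays tested in blood, Cxcr3 and Tbx21 differed most. Cxcr3 was 3.09 in Ifng-negative and 10.62 in Ifng-detected wells of animal M3, and 5.27 and 9.71, 2.07 and 10.20, 7.10 and 10.45, and 2.29 and 10.76 in blood samples M1 to M4. The arms did not overlap, and the difference was 6.38 ± 0.90 (n = 5, adjusted p = 0.00474). Tbx21 was 1.44 and 9.52, 4.95 and 6.70, 2.97 and 8.97, 6.52 and 7.97, and 2.48 and 10.14 in the same order, a difference of 4.99 ± 1.14 (adjusted p = 0.0237). It did not pass without animal M3 (4.22, adjusted p = 0.102) or without blood sample M2 (4.73, adjusted p = 0.0796). Ccr7 was 0.00 in the Ifng-detected arm of all 5 samples and 5.11, 3.75, 4.88, 2.67 and 2.29 in the other, a difference of -3.74 ± 0.65 (adjusted p = 0.0067). Zap70 was 4.08 ± 0.64 higher (adjusted p = 0.00474).

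Tnfrsf1a, also called in blood, lies outside the rule for named genes and was chosen after its values were seen. It was 2.84 ± 0.65 higher in Ifng-detected wells (adjusted p = 0.0237). These wells also had more detected assays in all 5 samples, by 5.44, 4.13, 9.56, 4.44 and 12.75. With the number of assays as a covariate 6 of 60 assays were called (10%). Cxcr3 (4.78) and Zap70 (2.70) remained higher and Ccr7 (-2.75) lower. Ccr4 (-2.50) and Cxcr4 (-2.38), further chemokine receptors, joined Ccr7. Tbx21 (4.01, adjusted p = 0.0554) and Tnfrsf1a (0.62, adjusted p = 0.839) no longer passed.

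In lymph node, 26 wells that met the same filters had Ifng (14.7%), all 26 with Cd3e. Cd3e wells of 5 animals or sorts of 6, 7 and 13 weeks, with 2 or more wells per arm, gave 22 Ifng-detected and 62 Ifng-negative wells. Of 58 assays, 5 were called (8.62%). Cxcr3 was 0 in the Ifng-negative wells of 3 of these and 0.75 and 0.95 in the other 2, against 6.42 to 11.18 in the Ifng-detected wells, a difference of 8.25 ± 1.01 (adjusted p = 0.0021). Icos rose by 4.55 ± 1.05 and Tnfrsf1b by 4.34 (both adjusted p = 0.0351), and Cd274 (PD-L1) by 3.26 (adjusted p = 0.045). Il4ra, the interleukin-4 receptor chain, fell by 4.13 (SE 0.73, adjusted p = 0.0141). Tbx21 was in too few lymph node wells to be tested. With the number of assays as a covariate 2 of 58 were called (3.45%), Cxcr3 (7.48) and Il4ra (-4.51), while Icos (3.86, adjusted p = 0.0552), Tnfrsf1b (3.85, adjusted p = 0.0805) and Cd274 (2.42, adjusted p = 0.137) did not pass. Leaving out each animal in turn gave 1 to 3 calls, with Cxcr3 among them each time and 1 call without M3 of 13 weeks or without M3 of 7 weeks.

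**Figure D5:**
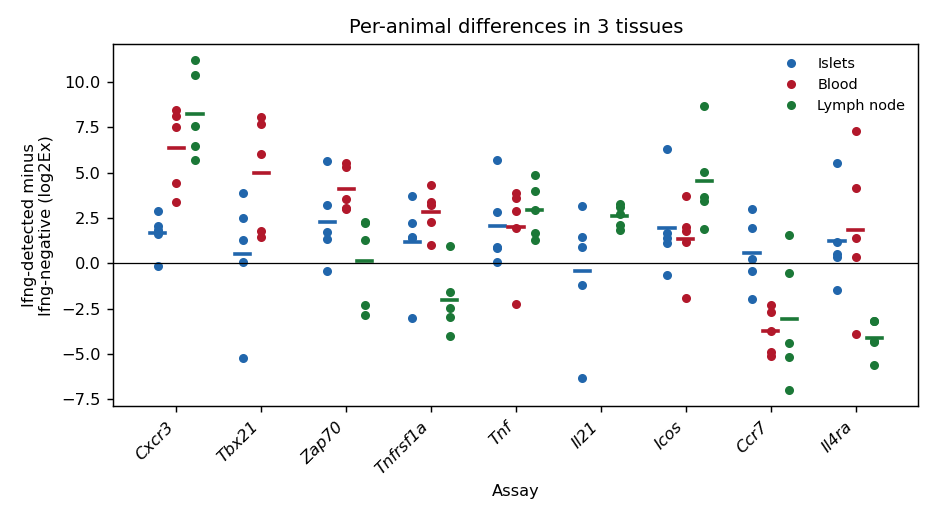
Mean log2Ex of Ifng-detected minus Ifng-negative wells (y axis) for 9 assays (x axis) in islets (Cd3e wells, 1 or more per arm), blood (all member wells) and lymph node (Cd3e wells), with a point for each animal and a bar at their plain mean. Cxcr3 is above 0 in every blood and lymph node animal and, at -0.16, just below 0 in 1 islet animal.

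Whether the split differed between islets and blood was tested directly. Over all wells 7 of 59 assays differed (11.9%). Tnfrsf1a (-6.22) and Ifngr1 (-4.87), both with an adjusted p of 0.00487, and Irf7 (-5.31, adjusted p = 0.0212) had a lower difference in islets. Ccr7 (5.09, adjusted p = 0.0112), Cd3e (6.31) and Irf4 (3.55) had a higher one. Irf7, a factor of the interferon response, was chosen after its values were seen. Among Cd3e wells 0 of 58 passed (0%), with 3 at an unadjusted limma p under 0.05. Cxcr3 then had -5.13 (adjusted p = 0.108) and Ccr7 3.73 (adjusted p = 0.193). The blood samples compared were all of 8 weeks and all 12-20, so tissue cannot be told apart from age and tetramer here.

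Gene lists were read against all assays tested in the same comparison. Lists share members, among them Ctla4, Pdcd1, Irf4 and Cxcr3, so the same call can count in several lists. Over all islet wells the median difference of the 71 assays was 0.29, and 8 of the 71 rose (11.3%). Of the 8 tested assays of the Th1 and effector list, 1 rose (Cxcr3), about the share of all assays, with a list median of 1.95. Of 4 follicular helper assays 2 rose (Il21 and Pdcd1, median 3.63), and of 6 activation and memory assays 3 rose (Ctla4, Cd28 and Irf4, median 3.16). Both inhibitory receptors rose (median 4.77), as did 2 of 3 T cell identity assays (Cd3e and Zap70, median 5.05). In the regulatory list 1 of 2 rose (Ctla4, median 3.07), in the chemokine receptor list 1 of 6 (Cxcr3, median 0.75) and in the Th2 list 1 of 2 (Irf4, median 0.15).

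The other lists had no call over all islet wells. Their medians were -0.02 for 11 interferon-stimulated assays, -2.47 for 5 antigen-presenting cell and co-stimulatory ligand assays, -0.12 for 3 TNF family assays and 0.87 for 2 naive and central memory assays. The 2 reference assays had a median of -0.01, the 10 assays typical of wells with few assays 0.33, and the 1 Th17 assay 0.06. In Cd3e wells no list held a call. Their medians there were 1.15 for the Th1 and effector list, 0.05 for follicular helper, 1.47 for activation and memory, 1.03 for inhibitory receptors, 0.92 for T cell identity and 0.21 for interferon-stimulated assays, against 0.45 over all 64 assays. In blood the Th1 and effector list had 3 of 8 assays higher (median 3.13), against 5 of all 60 assays (8.33%, median 1.08).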

How the data were processed

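Ct values of 22 chips of 96 assays by 96 wells were used as deposited. Per the file headers the authors exported them with Fluidigm Real-Time PCR Analysis 4.0.1; the baseline was linear (derivative), the Ct threshold automatic and global, and reactions passed at a quality of 0.65. Of 2112 wells, 1829 matched a sample label and 283 were not used here; 6 of the 1829 had no group in the labels. Detection needed a pass call and a Ct under 24: 34030 of 175584 Ct values were detected, and 20984 lay under 24 with a failed call. Levels (24 minus Ct, 0 where not detected) were not scaled to a reference gene, so differences in RNA input remain in them. The 96 assay names were matched to RefSeq symbols, 94 with success.

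Wells of 1 animal are not independent, so the unit of each test was the animal. Differences between arms were formed within animal, tetramer and chip, averaged per animal with weights from the wells in both arms, and tested with limma 3.58.1 (R 4.3.3; Benjamini-Hochberg, 0.05) over assays seen in at least 10% of member wells, Ifng and Foxp3 left out. The arms are paired because the labels place them in the same animal. Differences in shares and in the number of assays used exact permutation tests. The test was first run on these wells with Ifng calls shuffled within strata. Known shifts were then added to the per-animal differences of some assays. Its outcome is not given here. Exact intervals are Clopper-Pearson (scipy 1.17.1), and like the limit that a count of 0 allows they cover counting error only.

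Named genes were assays called in the islet comparison, with or without the covariate, up to 12 in each direction, plus index genes. Genes outside this rule are not all marked. Among those without a mark are Cd86, Cd80, Cd40, Ccr1, Bcl6, Il18r1, Ccr4, Cxcr4, Cd274 and Il4ra. The members and lists were chosen with earlier results of these data known. The Cd3e comparisons, the wider set of 5 animals, the comparison in 4 strata and the lymph node comparison were chosen after seeing the data. The result of 1 assay that counts among the calls is not reported here.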

Additional observations from a re-analysis of the deposited data

Results flagged for a closer look

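In the islet comparison each group held 3 animals, too few for a test of single samples; 37 sets of per-animal values in blood and lymph node were tested for a sample far from the rest, and chance alone marks about 1 in 20 such sets. In blood, sample M4 had a Cd3e difference of 5.51 log2Ex between Ifng-detected and Ifng-negative wells, far from the other 4 samples. Its Ifng-negative arm held only 4 wells, 75% of them with Cd3e, against 100% of its 5 Ifng-detected wells. In lymph node, M2 of 7 weeks stood apart for Gapdh (0.59) and M4 of 13 weeks for Il7r (5.33).

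The difference between Ifng-detected and Ifng-negative wells was itself tested between islets and blood. It was lower in islets for Ifngr1 (-4.87) and Tnfrsf1a (-6.22), and higher for Ccr7 (5.09), Cd3e (6.31) and Irf4 (3.55). These 5 came from all wells. In Cd3e wells alone Cd3e itself could not be tested, and none of the others passed.

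Foxp3-detected islet wells were outside the comparison. Ifng was detected in 24 of these 66 (36.4%, exact interval 24.9 to 49.1%), and Cd3e in 66 of 66.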

How the results depend on the processing

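The islet comparison rests on 3 animals and on few Ifng-negative cells with Cd3e, and a count of 0 calls there does not show that the arms are alike. Among named genes, no difference that passed over all islet wells changed sign in the alternatives of that comparison. In the separate comparison of Cd3e wells, Ifngr1 was 0.39 against -3.97, and leaving out 1 animal gave negative values for Pdcd1 (-1.65 without M3 of 13 weeks, -0.52 without M2 of 7 weeks) and, without M3 of 13 weeks, for Il21 (-0.10) and Zap70 (-0.0014), none past the threshold.

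Of the islet calls over all wells (9), Foxp3-detected wells kept gave 15, at least 5 wells per arm 0, the 12-20 tetramer alone 5, and 1 well per arm with weights 17. Cd3e wells alone gave 0, and all wells of the 4 strata those wells came from gave 2. Leaving out each animal gave 0 to 20, and no replicate block (unpaired arms) gave 8. With the number of assays as covariate (3), the counts were 10 with Foxp3-detected wells, 7 with at least 2 and 0 with at least 5 wells per arm, 10 for the share of wells, 11 with calls ignored, 0 over all assays, 9 with no replicate block, 0 for either tetramer alone and 21 for 1 well per arm with weights. Wells centred on their own mean gave 15, wells matched on assays 19, and leaving out each animal 0 to 14. In Cd3e wells (0), leaving out each animal gave 0 to 2 and no replicate block 0. In blood (6), leaving out each animal gave 4 to 11 and no replicate block 7. In lymph node (5), the covariate gave 2 and leaving out each animal 1 to 3. Islets minus blood (7) gave 0 in Cd3e wells.

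The age difference in the Ifng share (-34.3) was -47.5 (exact permutation p = 0.0286) with at least 25 assays and -48.7 (exact p = 0.0286) with at least 30. Both of these limits left sort i3 with fewer than 5 wells and so out of the comparison. With 3 against 4 animals or sorts, 0.0286 was the smallest p possible. In Cd3e wells the age difference was -13.4 (exact permutation p = 0.4). Leaving out each animal, the age difference ran from -50.0 to -22.9. The tetramer difference (-8.06) ran from -12.7 to -4.65 leaving out each animal and was 6.26 in Cd3e wells.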
